A study of Mus musculus with 22 samples.

Results

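In the livers of mice injected with tunicamycin (Tm), 126 loci rose in total mRNA between 2 h and 4 h after having moved little by 2 h. They were chosen by the authors' mean scaled fragments in total mRNA, out of 9383 well-measured loci of 39897 in the table. A member had risen at least 2.5-fold at 4 h against 0 h and was within 1.5-fold of its 0 h value at 2 h. A locus counted as well measured when its estimate was complete and its mean over the 6 groups was at least 50 scaled fragments. A scaled fragment is a sequenced fragment divided by a size factor of its library, and changes are given as differences of log2(mean + 1). In all, 248 of the 9383 loci (2.64%) had risen at least 2.5-fold at 4 h, and the late-rising loci were 50.8% of them. Of the rest, 118 were already at least 1.5-fold higher at 2 h, and 4 were at least 1.5-fold lower at 2 h. Because the total means at 0 h, 2 h and 4 h chose the members, their changes in total mRNA are a description and carry no evidence of their own. Changes in heavy polysomal mRNA, the fraction carried by more than 3 ribosomes, were not used in the choice, but the polysomal levels entered it through the minimum mean over the 6 groups. With the minimum taken over the 3 total groups alone, an alternative chosen after seeing the data, 125 of the 126 loci were members and no other locus was. Without the 4 h groups of both fractions, 20 of the 126 had a mean under 50, so these passed the minimum only through their high values at 4 h.

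Many secreted and membrane proteins need sugar chains to fold in the endoplasmic reticulum, and Tm stops those chains from being made. Sensors in the membrane of that compartment then start the unfolded protein response. One arm of it phosphorylates eIF2α and slows the start of translation within a short time, while the transcription factors of the response change mRNA levels more slowly. An mRNA that is being actively translated carries many ribosomes and sediments with heavy polysomes. Its share there, set against its total level, is therefore used as a measure of how well it is loaded with ribosomes. In these data that share also ran with locus length, as given below.

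The mice were C57BL/6 males, 5 weeks old, given 0.1 mg/kg Tm intraperitoneally at 8 am and culled at 10 am for the 2 h group and at noon for the 4 h group. The 0 h mice were culled at 9 am. The labels list tunicamycin for them too, whereas the methods call them control mice and do not say whether they were injected. Time after injection and time of day cannot be told apart. Total mRNA was measured in 3 livers per time point and polysomal mRNA at 4 h in 3. For polysomal mRNA at 0 h and 2 h only the authors' group means were used, without an error, since the table holds 3 measurements per time point and the labels list 2 libraries. The 12 libraries used held from 9788578 to 17283500 counted fragments. The biological coefficient of variation was 0.136 among the total libraries and 0.144 among the 4 h libraries of both fractions. Each library was scaled to its own depth, so a loss of polysomes shared by all mRNAs cannot be seen in these values.

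The loci carry Cuffdiff numbers without gene names or positions, so no function can be given for a member, and the identity of the tissue could not be checked with marker genes. In whole liver, more cells of a type and more RNA per cell cannot be told apart. All 126 members had a complete estimate in all 12 libraries and passed the filter on low counts. Their median length was near that of all loci, but only 18 of the 126 (14.3%) lay in the shortest 25% of all loci. Locus length, taken from the ratio of fragments to FPKM (fragments per unit of length and of library depth) and set so that the median locus is at 1, had a median of 1.17 among the members against 1.01 among all 9373 loci with a complete estimate in every library. Their levels per length were low at the start. The median at 0 h was 4.15 FPKM among the members and 9.44 FPKM among all loci, and 95 of the 126 members lay under that overall median. Among the loci already up at 2 h the median was lower still, at 3.37 FPKM over 117 with a complete estimate in every library. The 0 h total value entered the choice of members, so nothing is read from their low start. At 4 h the members' median was 15.2 FPKM, with the middle 50% of them from 7.36 to 31.8 FPKM. Together they took up 0.358% ± 0.00402 of the counted fragments at 0 h (SD, n = 3), 0.392% ± 0.0539 at 2 h and 1.27% ± 0.0890 at 4 h.

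The rise fell almost wholly between 2 h and 4 h, as the choice of members required. The median log2 change in total mRNA was 0.29 by 2 h and 1.65 by 4 h, against 0.02 at both times over all 9383 loci. As folds, the members stood at a median of 1.22 at 2 h and 3.13 at 4 h, and the middle 50% of them at 4 h lay between 2.69 and 4.07. The largest rise was 47.4-fold, 32 members rose at least 4-fold and 8 at least 8-fold. The median member gained 91.3% of its rise after 2 h, and among the 118 loci already up at 2 h this share was 72.7%. The window around 0 h at 2 h was not filled evenly. Of the 126 members, 108 were above their 0 h mean at 2 h, against 54.0% of all loci, and 18 were below it. The 2 h change shares its 0 h mean with the 4 h rise that chose the members, so nothing is read from this small shift. The 3 livers at 2 h differed in this small shift, with median changes of 0.39, 0.28 and 0.11 in libraries 1, 2 and 3. At 4 h the libraries were close to each other, at 1.59, 1.72 and 1.64.

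Tested over all 12606 loci that passed the filter on low counts, by edgeR's quasi-likelihood test (Benjamini-Hochberg adjusted p below 0.05, change of 2-fold or more), all 126 members were called higher at 4 h than at 0 h, where 5.08% of all loci were. Against 2 h, 116 of the 126 were called higher at 4 h, where 3.63% of all loci were. At 2 h against 0 h none of the 126 was called, where 0.317% of all loci were called higher and 0.0793% lower. By edgeR without adjustment, 36 members were higher at 2 h at the 0.05 level and 0 were lower, where 6.66% and 5.17% of all loci were. The count of 36 was 18 without library 1 of the 2 h group and 54 without library 3. DESeq2 also called 0 members, where it called 0.5% of all loci higher and 0.206% lower. The choice used these contrasts, so nothing is read from the counts.

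The 3 libraries at 4 h lay above all 3 at 0 h in 123 of the 126 members (29.1% of all loci), and above all 3 at 2 h in 123 (26.2%). In 5 members, chosen here after their values were seen, the 4 h livers overlapped an earlier group. The clearest was the member with the third largest rise, which held 608, 1812 and 40.1 scaled fragments in the 3 livers at 4 h, against 16.2, 19.2 and 49.3 at 0 h and 25.3, 29.4 and 31.7 at 2 h. Livers 1 and 2 stood far above every earlier library, and liver 3 lay within the 0 h range. The member with the ninth largest rise behaved alike, at 1682, 2878 and 257 scaled fragments at 4 h against 168, 156 and 280 at 0 h. In 4 of these 5 members library 3 was the lowest at 4 h, and in the other one library 2 was.

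**Figure D1:**
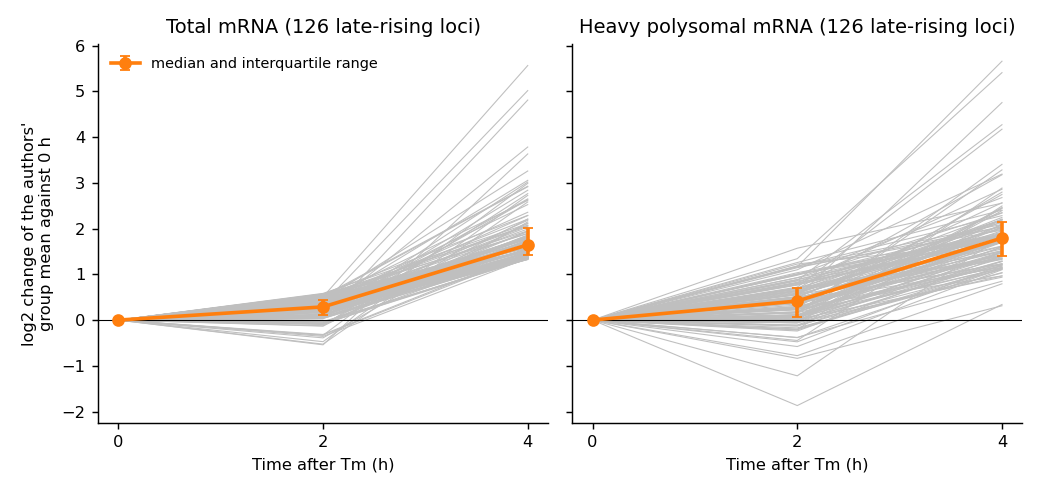
Change of the 126 late-rising loci against 0 h in total mRNA (left) and heavy polysomal mRNA (right), as log2 differences of the authors' group means, against time after Tm in hours. Grey lines are single loci, and points with bars are the median and the interquartile range over the loci. The medians run from 0.29 to 1.65 in total and from 0.42 to 1.79 in polysomal mRNA, and single loci spread more widely at 2 h in polysomes.

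The polysomal means followed the rise, although no test over time could be run on them. Total and polysomal libraries of the same number deviated together at 4 h, so the polysomal rise at 4 h is not independent of the choice. In heavy polysomal mRNA all 126 members were higher at 4 h than at 0 h (53.2% of all loci), with a median log2 change of 1.79, or 3.47-fold, against 0.05 over all loci. The middle 50% of the members lay between 2.62-fold and 4.42-fold. A rise of at least 2.5-fold was reached by 99 of the 126 (78.6%), where 3.22% of all loci reached it. Of the 106 members with a mean of at least 50 without the 4 h groups, 83 reached it, and their median log2 change was 1.75. A rise of at least 2-fold was reached by 119 (6.61% of all loci), and one of at least 1.5-fold by 124 (17.6%). Each of the 3 polysomal libraries at 4 h could be set against the 0 h mean separately, and the median log2 change of the members was 1.78, 1.94 and 1.61. In 107 members each of the 3 polysomal libraries was at least 2-fold above the 0 h mean, where 4.28% of all loci were. In 123 members each of them was above it, where 40.5% of all loci were. As a share of all scaled fragments the members rose from 0.355% at 0 h to 0.384% at 2 h and 1.10% at 4 h in polysomal mRNA.

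In timing too the polysomal values resembled the total ones, with a wider spread. The median polysomal change at 2 h was 0.42 on the log2 scale, or 1.34-fold, against 0.06 over all loci. The members ranged from a fall to 0.274-fold to a rise of 2.97-fold, a range that total mRNA could not show because the rule bounded it. Of the 126 members, 79 were within 1.5-fold of 0 h in polysomes at 2 h (76.0% of all loci), 43 were at least 1.5-fold higher and 4 at least 1.5-fold lower. Over all loci, 12.9% were at least 1.5-fold higher and 11.1% at least 1.5-fold lower at 2 h. The late pattern as such, within 1.5-fold at 2 h and at least 2.5-fold higher at 4 h, was met in polysomes by 55 members (43.7%), where 1.24% of all loci met it. From 2 h to 4 h, all 126 were higher in polysomes (52.1% of all loci) and 125 rose at least 1.5-fold, where 10.2% of all loci did. The 118 loci already up at 2 h did nearly the same, with 118 higher and 114 (96.6%) at least 1.5-fold higher. The median member made 88.0% of its polysomal gain after 2 h, and the middle 50% of the members made between 76.6% and 98.3%. Among the 118 loci already up at 2 h the median was 77.1%.

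The polysomal value at 2 h ran with the one at 4 h, and both are set against the same polysomal 0 h mean. All 43 members that were at least 1.5-fold higher in polysomes at 2 h reached 2.5-fold at 4 h. Of the 79 within 1.5-fold, 55 did, and of the 4 that were lower, 1 did. The 43 early movers had a median change in total mRNA at 4 h of 1.66, close to the 1.60 of the 79. Their median ratio of polysomal over total mRNA at 0 h was -0.51 on the log2 scale against -0.19 over all 126 members, a value that contains the polysomal 0 h mean by which the 43 were set apart, so nothing is read from it. By their small total change at 2 h, 58 members were higher by at least 0.32 on the log2 scale, 61 moved by less and 7 were lower by at least 0.32. Their median polysomal changes at 2 h were 0.56, 0.28 and -0.03, and at 4 h 1.84, 1.74 and 2.495. The 7 members with the lowest total changes at 2 h had the largest of these polysomal medians at 4 h. Their median total change at 4 h was also the largest, at 2.58. None of the 7 was lower at 2 h than at 0 h by edgeR even without adjustment. The total changes at 2 h and 4 h chose the members and share their 0 h mean, so nothing is read from this order.

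**Figure D2:**
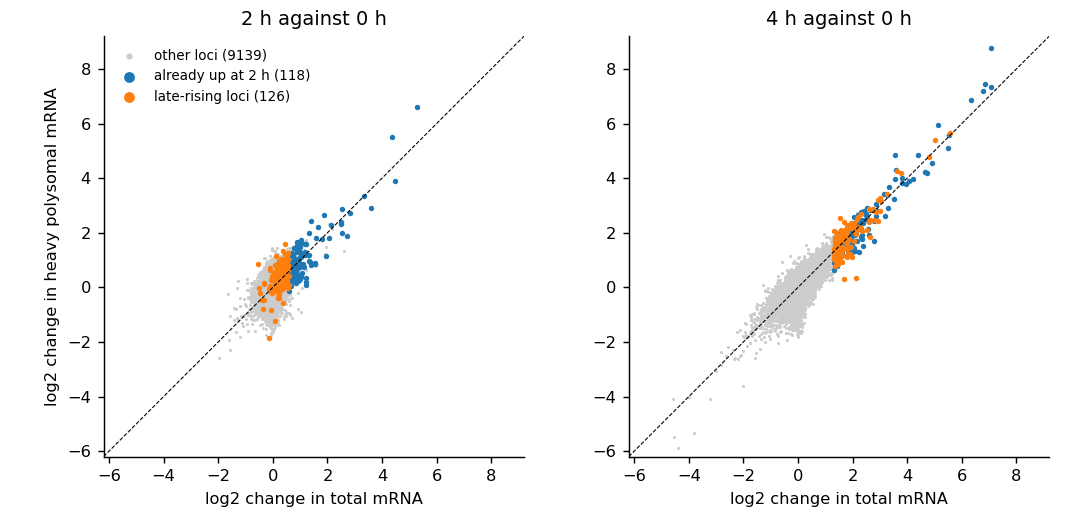
Log2 change in heavy polysomal mRNA against that in total mRNA, from the authors' group means, at 2 h (left) and 4 h (right). Orange points are the 126 late-rising loci, blue points the 118 loci already up at 2 h, grey points the other 9139 loci, and the dashed line marks equal changes. At 4 h most late-rising loci lie near the dashed line, with 9 at least 1.5-fold below it and 5 at least 1.5-fold above it, and the lowest of them are a pair of loci at polysomal changes of 0.34 and 0.31.

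The ratio of polysomal over total mRNA changed little on balance. Its median change among the members was 0.14 on the log2 scale at 2 h and 0.07 at 4 h, against 0.04 and 0.06 over all loci. At 4 h the ratio had risen in 69 of the 126 members (54.8%), where it had risen in 55.9% of all loci. It was at least 1.5-fold lower in 9 members (8.0% of all loci) and at least 1.5-fold higher in 5 (3.41%), shares near those of all loci. At 2 h it was at least 1.5-fold higher in 21 members (9.22% of all loci) and at least 1.5-fold lower in 5 (10.3%). These ratios contain the total means that chose the members. Without polysomal library 2 at 4 h the median change of the ratio at 4 h was -0.015, and without polysomal library 3 it was 0.15, so its sign and size rested on single libraries. The median change at 2 h was 0.07 without total library 3 of 2 h and 0.23 without library 1.

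At every time point the members' median ratio was somewhat under that of all loci. It was -0.19 at 0 h against -0.04 over all loci, -0.08 at 2 h against 0.005, and -0.20 at 4 h against 0.00. Here too the ratios contain the total means that chose the members, so nothing is read from the difference. The ratio at 0 h also ran with locus length. Its medians in the 42 shortest, the 42 middle and the 42 longest members were 0.03, -0.12 and -0.34. All loci of the same length ranges had medians of 0.27, -0.08 and -0.34. At 4 h, where both fractions have 3 libraries, the members' median ratio was -0.14, -0.14 and -0.25 in the libraries numbered 1, 2 and 3. The ratio was below 0 in all 3 numbers in 63 members (33.8% of all loci) and above 0 in all 3 in 24 (33.3%). The edgeR quasi-likelihood test of polysomal against total mRNA at 4 h, which shares the total 4 h libraries with the choice of members, called 3 of the 126 lower and 0 higher (Benjamini-Hochberg adjusted p below 0.05, change of 2-fold or more). Over all 12575 loci tested, 3.18% were called lower and 1.34% higher. DESeq2 also called 3 lower and 0 higher, where it called 2.85% and 1.24% of all loci. With no minimum fold and no pairing, edgeR called 20 members lower and 6 higher, or 15.9% and 4.76% of the 126. Of all loci, 14.7% and 11.6% were called.

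Locus length and the change of the ratio ran together, among the members as among all loci. In the 42 shortest members the median change of the ratio at 4 h was -0.12 on the log2 scale. In the 42 of middle length it was 0.05 and in the 42 longest 0.20. All loci of the same length ranges had medians of -0.17, 0.11 and 0.18. At 2 h the members' medians were -0.09, 0.14 and 0.22 from short to long, and those of all loci of these ranges -0.24, 0.11 and 0.24. Of the 9 members with a ratio at least 1.5-fold lower at 4 h, 6 were among the 42 shortest (14.3%) and 0 among the 42 longest, where 17.7% and 0.544% of all loci of these lengths were as low. All 4 members that were at least 1.5-fold lower in polysomes at 2 h were among the 42 shortest (9.52%), where 23.4% of all loci of that length range were. In the rise itself the length classes lay close together, with median polysomal changes at 4 h of 1.77, 1.73 and 1.83. A rise of 2.5-fold in polysomes was reached by 30, 31 and 38 of the 42 loci from short to long, where 2.47%, 3.60% and 3.88% of all loci of these lengths reached it.

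**Figure D3:**
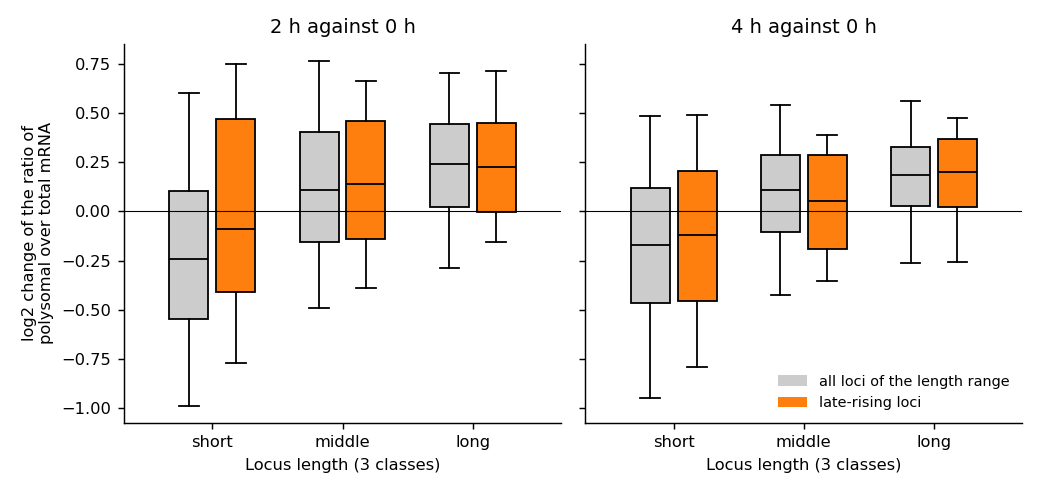
Change of the ratio of polysomal over total mRNA (log2, authors' group means) at 2 h (left) and 4 h (right) in the short, middle and long late-rising loci (orange, 42 loci each) and in all loci of the same length range (grey). Boxes show the median and the middle 50%, and whiskers the 5th and 95th percentiles. At 4 h the orange medians are -0.12, 0.05 and 0.20 and the grey ones -0.17, 0.11 and 0.18.

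The largest rise belonged to XLOC_022234, a locus of about median length. It was barely detected at 0 h, at 4.77, 1.20 and 5.24 scaled fragments in the 3 livers, and at 2 h, at 10.5, 2.18 and 4.52. At 4 h it held 215, 211 and 245 scaled fragments, so the 4 h libraries lay far above all earlier ones. The polysomal libraries at 4 h held 250, 290 and 326, against an authors' mean of 4.72 at 0 h and 11.9 at 2 h. Its fold was 47.4 in total and 50.6 in polysomal mRNA on the log2(mean + 1) scale. The edgeR estimate in total mRNA was 6.02 ± 0.36 (log2, SE), a value that depends on few fragments at 0 h. At 4 h its polysomal and total values differed by 0.36 ± 0.14 (log2, SE). The Benjamini-Hochberg adjusted p was 0.0706 in edgeR's quasi-likelihood test without pairing, which misses the threshold. Its value with the libraries paired is not given here.

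The other large rises were also large in polysomes at 4 h. Over the 10 largest rises in total mRNA, folds at 4 h ran from 7.61 to 47.4 in total and from 6.96 to 50.6 in polysomal mRNA. The change of the ratio at 4 h in these 10 ran from -0.22 to 0.64 on the log2 scale, with none of them past 1.5-fold down and 1 past 1.5-fold up. Of these 10 loci, 8 passed the minimum mean only through the 4 h groups, polysomal ones included, so their high polysomal values at 4 h were part of what admitted them. The fractions differed more at 2 h. The member with the fifth largest rise stood at 0.688-fold in total and 1.82-fold in polysomal mRNA, but on few fragments. Its mean went from 9.98 to 6.55 scaled fragments in total and from 7.79 to 15.0 in polysomal mRNA. In all, 5 of the 8 members with a rise of at least 8-fold in total mRNA were at least 1.5-fold higher in polysomes at 2 h. The polysomal 0 h means of these 5 ran from 4.72 to 111 scaled fragments, without an error. Among the 8, the median polysomal change at 2 h was 0.70 and the median total change 0.26.

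XLOC_031851 had the highest level of all members and the largest fall of the ratio. It is very short, at 0.0685 of the median length, so its level per length is large, at 2120 ± 180 FPKM at 0 h (SD, n = 3) and 8506 ± 1289 at 4 h. In total mRNA it held 4558, 4558 and 4862 scaled fragments at 0 h, 2948, 5393 and 4410 at 2 h and 20468, 19691 and 20573 at 4 h. The 2 h livers scattered around the 0 h level, and the 4 h livers stood together about 4.34-fold above it. In polysomes the course was different. The authors' mean fell from 7875 scaled fragments at 0 h to 2155 at 2 h, the deepest fall of any member, and returned to 9974 at 4 h, 1.27-fold of its start. The log2 ratio of polysomal over total went from 0.76 at 0 h to -0.98 at 2 h and -1.02 at 4 h. The polysomal libraries of 4 h, at 11332, 10794 and 7794 scaled fragments, all lay below the total ones. The difference was -1.03 ± 0.16 (log2, SE), with a Benjamini-Hochberg adjusted p of 0.00133 in edgeR's quasi-likelihood test.

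XLOC_005634, another short locus at 0.167 of the median length, had the next largest fall of the ratio. It held 581, 688 and 744 scaled fragments in total mRNA at 0 h, 665, 678 and 579 at 2 h and 1886, 2287 and 2250 at 4 h. In polysomes its mean went from 440 at 0 h to 246 at 2 h and 547 at 4 h, where the 3 libraries held 686, 562 and 392. It thus rose 3.19-fold in total and 1.24-fold in polysomal mRNA. Its polysomal value at 4 h was lower than the total one by a log2 difference of -1.97 ± 0.19 (SE), with an edgeR quasi-likelihood Benjamini-Hochberg adjusted p of 8.67e-05. These 2 loci were the only members under 1.5-fold in polysomes at 4 h. The 5 largest falls of the ratio ran from -1.78 to -0.67, and 4 of these 5 loci were from 0.0685 to 0.375 of the median length.

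The third member called lower in polysomes at 4 h had the largest rise of the ratio. Its mean in total mRNA went from 136 to 187 and 396 scaled fragments at 0 h, 2 h and 4 h, and in polysomal mRNA from 26.3 to 80.1 and 160. Its polysomal share was low at the start, and it gained 5.88-fold in polysomes against 2.89-fold in total. At 4 h it was still lower in polysomes by a log2 difference of -1.31 ± 0.13 (SE). The 5 largest rises of the ratio ran from 0.64 to 1.02. One of these 5 was also the member with the second highest mean in total mRNA at 4 h, which went from 4557 to 11427 scaled fragments in total and from 3434 to 14185 in polysomal mRNA between 0 h and 4 h. Of the 5 members with the highest means at 4 h, 4 rose from 3.78-fold to 5.10-fold in polysomes, and XLOC_031851 was the exception. XLOC_031851 and the second of these held a large part of the members' fragments. Without them the members' share in total mRNA went from 0.272% at 0 h to 0.962% at 4 h, and in polysomal mRNA from 0.249% to 0.869%.

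**Figure D4:**
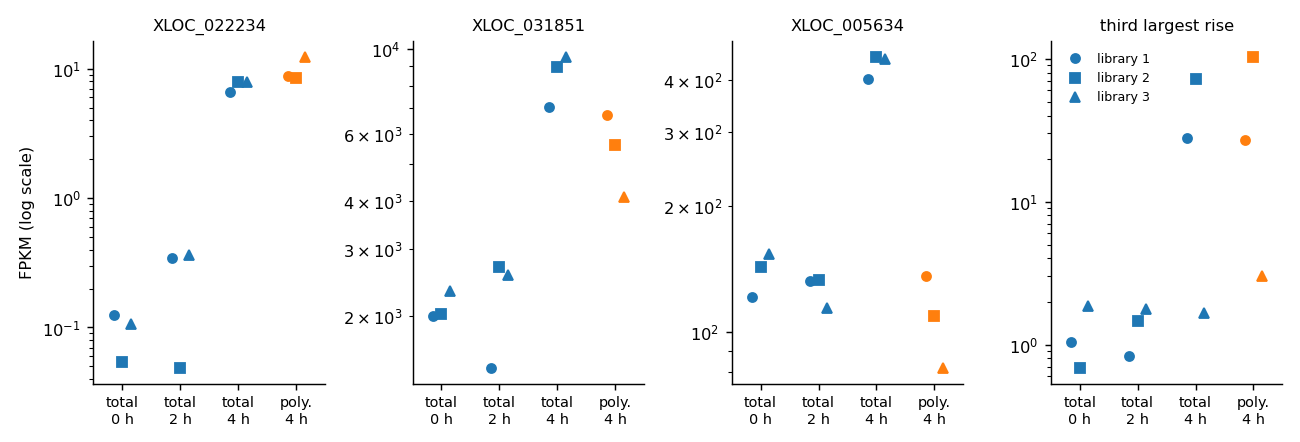
FPKM (log scale) of 4 late-rising loci in each library of total mRNA at 0 h, 2 h and 4 h (blue) and of polysomal mRNA at 4 h (orange). The symbol gives the library number, and each panel has its own axis. XLOC_022234 rises in both fractions, XLOC_031851 and XLOC_005634 rise in total mRNA and lie lower in polysomes, and the locus with the third largest rise is high in libraries 1 and 2 and low in library 3 in both fractions.

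Where single livers differed at 4 h, the polysomes differed with them. The locus with the third largest rise, at 608, 1812 and 40.1 scaled fragments in total mRNA, held 605, 2122 and 60.2 in the polysomal libraries of the same numbers. The one with the ninth largest rise held 1440, 3587 and 432. Across the 126 members, the deviations of a total library and of the polysomal library of the same number from their group means had Pearson correlations of 0.60, 0.87 and 0.83 for numbers 1, 2 and 3. Over all 9373 loci these were 0.48, 0.48 and 0.46. The points of each correlation share a pair of libraries, so they are a description. The same library number was highest in both fractions in 78 of the 126 members (45.1% of all loci) and lowest in both in 74 (47.0%). Library 2 was the highest of the 3 polysomal libraries in 68 members, and library 3 the lowest in 73, where these shares were 38.5% and 36.9% of all loci.

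The members also spread more widely between livers than the median locus. At 0 h, 2 h and 4 h the median SD of log2 scaled fragments among the 3 livers was 0.19, 0.28 and 0.17 in the members, against 0.13, 0.16 and 0.13 in all loci. Among the 118 loci already up at 2 h it was 0.23, 0.32 and 0.16. An SD of at least 0.5 in both fractions at 4 h was found in 10 members, or 7.94%, and in 1.17% of all loci. The members also had fewer fragments at 0 h, with a median of 142 scaled fragments against 273 in all loci. In the 118 loci already up at 2 h the median was 94.7. The part of these low counts in the members' spread was not tested. Within a library number at 4 h, the polysomal over total ratio had a median SD of 0.19 in the members and 0.18 in all loci.

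**Figure D5:**
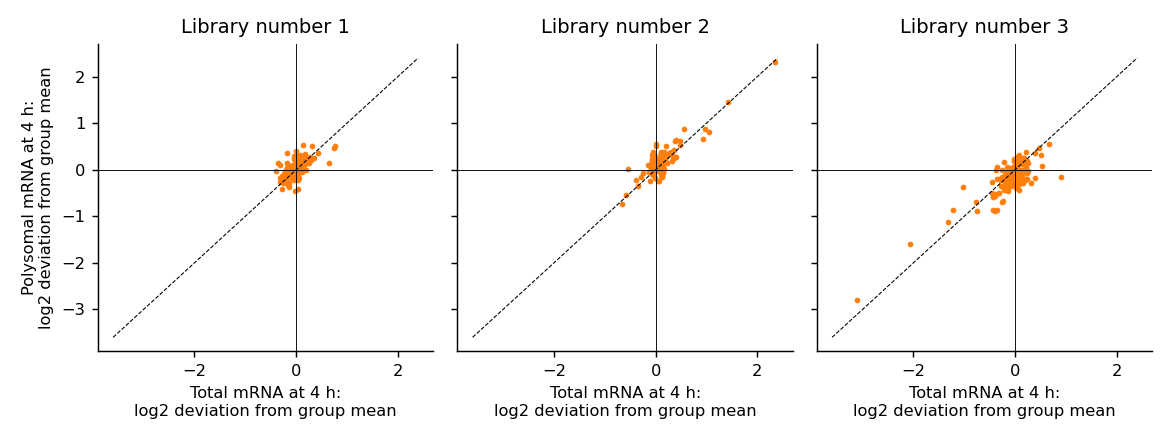
Deviation of each library from its group mean at 4 h (log2 scaled fragments + 1) for the 126 late-rising loci, with total mRNA on the horizontal and polysomal mRNA on the vertical axis, 1 panel per library number. The dashed line marks equal deviations. The loci with large deviations in libraries 2 and 3 lie close to the dashed line, and the correlations are 0.60, 0.87 and 0.83.

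Set beside the 118 loci already up at 2 h, the late-rising loci had smaller median changes in both fractions. The choice fixes this for total mRNA at 2 h, by which the groups were set apart. Both groups met the same 4 h threshold, but the total changes at 2 h and 4 h share their 0 h mean. The other differences are thus not free of the choice. The earlier group had median log2 changes of 0.89 and 2.15 in total mRNA at 2 h and 4 h, and of 0.88 and 2.07 in polysomal mRNA. In it, 88 of 118 loci were at least 1.5-fold higher in polysomes at 2 h, and 105 of 118 (89.0%) reached 2.5-fold in polysomes at 4 h, beside 99 of 126 late-rising loci. Its median change of the ratio was -0.09 at 2 h and -0.04 at 4 h, beside 0.14 and 0.07 in the late-rising loci. The ratio at 2 h contains the total change at 2 h that split the groups, so nothing is read from its difference. No test of these differences was made.

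The edges of the list are not gaps. The 3 members just inside the 4 h threshold had risen 2.504-fold, 2.507-fold and 2.516-fold in total mRNA, and the 3 loci just outside 2.499-fold, 2.496-fold and 2.495-fold. Those 3 outside had risen by 1.76, 1.33 and 1.46 on the log2 scale in polysomes, and those inside by 1.34, 2.05 and 1.41. At the upper bound of the 2 h window, the 3 members inside stood at 1.499-fold, 1.488-fold and 1.482-fold and the 3 loci outside at 1.50002-fold, 1.505-fold and 1.507-fold. At the lower bound the 3 inside stood at 0.688-fold, 0.695-fold and 0.721-fold and the 3 outside at 0.619-fold, 0.577-fold and 0.438-fold. The 3 members with the lowest means over the 6 groups had 50.5, 50.8 and 53.1 scaled fragments, and the 3 loci of the same pattern just under the minimum 43.5, 43.2 and 42.7.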

How the data were processed

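Stranded poly(A) libraries of total and heavy polysomal liver RNA were sequenced. Per the methods and the submitters' processing notes, the authors used TopHat2 2.0.13 with a GRCm38 transcriptome for alignment and Cufflinks 2.2.1 (Cuffdiff) for quantification, with corrections for fragment bias and for multiply mapped reads. The annotation release is not given in the sources used here. The authors deposited, per locus and library, the raw count of fragments, the FPKM, and the count divided by a size factor set across all libraries of the table. The authors also deposited the mean of the scaled values per group, a signal without an error. The table holds 81 read groups, of which 12 were used, and of 27 group means 6; the other 69 read groups and 21 means belong to groups outside the listed samples or are polysomal libraries at 0 h and 2 h. Tables with the 6 libraries at 10 h number their loci separately and were not used here.

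The members, and the subsets by length and change, were chosen with earlier results of these data known. The whole table of counts went into edgeR 4.0.16 under R 4.3.3 (TMM, filterByExpr, quasi-likelihood test, Benjamini-Hochberg adjustment, adjusted p under 0.05 and at least 2-fold), with the 9 total libraries in 1 model and the 6 libraries of both fractions at 4 h in another. The 54 loci with an incomplete estimate in a library were left out of the counts per library. Group means were compared as log2(mean + 1) in Python 3.11.15 with numpy 2.4.6 and pandas 2.3.3, with no test. At 4 h, total and polysomal libraries of the same number deviated together over 9373 loci (r from 0.456 to 0.485, against -0.318 to -0.120 for unlike numbers). The numbers therefore pair these libraries, and a fit with that block was an alternative. The paper gives 3 mice per time point and takes both fractions from liver, so total and polysomal libraries of a time point would come from the same animals, though the labels do not say which, while libraries of 1 fraction are separate livers. Loci were named by a fixed rule: the largest rise, the highest mean, the 2 largest falls of the ratio, and by rank the 10 largest rises, the 5 highest means, the 5 largest rises and falls of the ratio and the 3 loci at each side of each threshold. Alternatives were DESeq2 1.42.0, upper-quartile normalization, no filter beyond 1 count, no minimum fold, other thresholds, pseudocounts and minimum means, removal of the trend with length in 50 bins, and each library left out. The fits were first tested on simulated data.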

Additional observations from a re-analysis of the deposited data

How the results depend on the processing

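The number of members depends on the limits of the rule. It was 78 with a minimum mean of 200, 327 with a rise of 2-fold, 71 with a rise of 3-fold, 61 with a 2 h window narrowed to 0.32 on the log2 scale and 200 with one of 2-fold. Leaving out 1 total library gave from 105 to 145 members, of which 99 to 120 were among the 126. Calls among the members changed most where the minimum fold was dropped: 1 member was then called at 2 h against 0 h, and 6 were higher and 20 lower in polysomes than in total mRNA at 4 h. With the minimum mean taken over the total groups alone, chosen after seeing the data, 98 of 125 members rose 2.5-fold in polysomes at 4 h. With a minimum mean of 200, 63 of the 78 members left rose 2.5-fold in polysomes at 4 h. Leaving out 1 library gave 125 to 126 members called higher at 4 h against 0 h, 104 to 115 against 2 h, 0 called at 2 h, and 0 higher and 2 to 3 lower in polysomes than in total mRNA. The median polysomal change at 4 h was then 1.73 to 1.86, with 96 to 101 members at 2.5-fold. The median change of the ratio was 0.07 to 0.23 at 2 h, and at 4 h -0.015 to 0.15, a change of sign where polysomal library 2 was left out. The cause of these shifts was not tested.

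With the replicate block, 3 members were called lower and 0 higher in polysomes at 4 h, as without pairing. Between time points the numbers are shared labels only, with correlations of same-numbered total libraries over all loci from -0.025 to 0.354; the block gave 126, 0 and 115 members for 4 h against 0 h, 2 h against 0 h and 4 h against 2 h. Of the 122 alternative values computed for 11 results, 1 changed sign, 10 moved and 111 stayed within the tolerance. Among these results, the calls in total mRNA over time were largely fixed by the choice of members. That they stayed within the tolerance is therefore no evidence of stability. The tolerance was 1.5 times for counts and 1 SD between libraries for medians. At 4 h the SD was 0.167 for the polysomal change and 0.0630 for the ratio. At 2 h no polysomal library was used, so 0.145, the SD of the total 2 h library medians, stood in for both. That tolerance is wide beside the small ratio changes, whose median at 4 h was 0.01 after subtracting the median of all loci. Polysomal changes at 0 h and 2 h rest on means without an error, and few fragments at 0 h limit the folds of the largest rises.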
